A study of Mus musculus with 6 samples.

Results

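The members are the protein-coding genes of the mouse annotation whose symbol reads Col, a number, a and a number, the alpha chains of the collagens. The GENCODE annotation of mm10 holds 44 such genes among 21951 protein-coding genes. They form 41 loci, because the 6 collagen IV genes stand as head-to-head pairs, *Col4a1*/*Col4a2*, *Col4a3*/*Col4a4* and *Col4a5*/*Col4a6*. Open chromatin was mapped by ATAC-seq, where the transposase Tn5 cuts accessible DNA, in astrocyte nuclei of mouse primary visual cortex (V1) at postnatal day 21. All mice were GR fl/fl, with a floxed glucocorticoid receptor (GR) gene, and received a virus at postnatal day 0 or 1. The GR-KO group received an AAV2/5 vector in which the astrocyte promoter GfaABC1D drives Cre together with EGFP-KASH, a green fluorescent protein held at the nuclear envelope. The GR-con group received the same vector with ΔCre, an inactive form of the recombinase. Each group has 3 libraries, each made from 50000 sorted nuclei positive for the DNA dye DRAQ5 and for GFP, with V1 pooled from 3 or 4 animals. Mice of both sexes were used, and whether the GR gene had recombined was not checked here.

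Collagens are secreted or membrane-bound proteins built from alpha chains that wind into a helix. Fibrillar collagens form fibres, collagen IV forms the sheet of the basement membrane around brain vessels and under the pia, and transmembrane collagens sit in the cell surface. In brain most collagen is made by vessel cells and by the fibroblasts of the leptomeninges, while astrocyte endfeet contact the vascular basement membrane. Glucocorticoids act through GR, a transcription factor that binds palindromes of a short half-site, and they are known to lower collagen synthesis in connective tissue.

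The authors deposited 1 peak list per library, and each peak has a summit, a fold enrichment over the local background and the −log10 of a p-value. The lists held 179462 to 198929 peaks, and the reads behind them are not known here, so a longer list may come from a deeper library. Consensus sites of 401 bp, centred on the strongest summits, were kept where a peak covered more than 200 bp of the site in at least 2 libraries. Of 133271 sites, 625 (0.469%) had their centre in a collagen gene or within 50 kb of it. In these sites 38 centres fell in exons, 272 in introns, 140 upstream and 175 downstream of the gene, and 114 of the flank sites lay inside another protein-coding gene. A peak was present in all 6 libraries at 420 collagen sites (67.2%), against 65.0% of all sites. The median collagen site stood at percentile 50.6 of the fold ranking.

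The nuclei carried open astrocyte promoters. All 6 astrocyte markers (*Aqp4*, *Aldh1l1*, *Slc1a3*, *Slc1a2*, *Gja1* and *S100b*) had a promoter peak in all 6 libraries, with a summed fold of 45.5 to 47.0 in GR-con and 48.0 to 51.5 in GR-KO libraries. Of 6 markers of fibroblasts and leptomeningeal cells, *Dcn*, *Lum* and *Slc6a13* had no promoter site. The other 3, *Pdgfra*, *Igf2* and *Foxc1*, had a peak in all 6 libraries (summed fold 32.3 to 36.2 in GR-con and 30.9 to 37.0 in GR-KO). Much of that sum was *Pdgfra*, with 18.1, 17.3 and 15.1 in GR-con and 18.6, 17.1 and 15.8 in GR-KO. Promoter sites were found for 4 of 6 markers of pericytes and smooth muscle, 3 of 6 of endothelium, 5 of 6 of neurons, 2 of 6 of microglia and 3 of 6 of the oligodendrocyte lineage. The summed fold of each of these lists overlapped between the groups. For pericytes and smooth muscle it was 37.2 to 38.8 in GR-con and 25.7, 37.8 and 28.5 in GR-KO 1, 2 and 3. In that list the *Rgs5* promoter had no covering peak in GR-KO 1 and 3, that of *Acta2* had none in GR-KO 1, and that of *Kcnj8* had folds of 19.1, 18.8 and 17.4 against 15.5, 15.9 and 12.7 (adjusted p = 0.196). The promoter of *Pdgfrb*, in the same list, had 7.76, 9.21 and 8.52 against 10.2, 11.3 and 9.83, above GR-con in every GR-KO library (adjusted p = 0.327). For endothelium it was 10.1 to 12.2 in GR-con and 7.0 to 15.2 in GR-KO. For neurons it was 19.5, 15.9 and 24.4 in GR-con and 15.5, 8.52 and 17.6 in GR-KO, and the promoter of *Gad2*, which encodes a GABA-making enzyme, had folds of 5.10, 2.63 and 5.07 in GR-con and no covering peak in GR-KO (adjusted p = 0.238). The other neuron markers with a site, *Rbfox3*, *Snap25*, *Gad1* and *Syt1*, had score differences of 0.09, -0.13, 0.14 and -0.06. For microglia it was 11.2 to 16.1 against 14.1 to 19.7, and for the oligodendrocyte lineage 20.2 to 23.6 against 18.6 to 22.6. In bulk nuclei, fewer nuclei of a cell type and less open chromatin per nucleus cannot be told apart. The part of other cell types in the collagen values was not tested.

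The central 201 bp of 4 sites to which the values below return are given here from the mm10 reference, on the forward strand. The first, in an intron of *Col4a1* (chr8:11270921-11271121), had a peak in all 3 GR-con libraries and none in GR-KO. The second, in an intron of *Col4a6* (chrX:141211727-141211927), and the third, downstream of *Col11a2* (chr17:34091003-34091203), hold a GR palindrome. The fourth, in an intron of *Col5a1* (chr2:27960811-27961011), was the only collagen site called higher in GR-KO by the fold of covering peaks. Capitals mark matches to the motifs searched on both strands: the GR palindrome (GNACA, any 3 bases, TGTNC), the GR half-site AGAACA, the AP-1 motif TGANTCA, the NFI palindrome (TTGGC, any 5 bases, GCCAA) and ACTGTA. A half-site can lie inside a palindrome, as in *Col4a6*, where the capitals of both run together.
Col4a1 intron: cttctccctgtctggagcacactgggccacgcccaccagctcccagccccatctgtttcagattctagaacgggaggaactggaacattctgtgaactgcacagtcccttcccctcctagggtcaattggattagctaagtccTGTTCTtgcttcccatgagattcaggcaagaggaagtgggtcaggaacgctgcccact
Col4a6 intron: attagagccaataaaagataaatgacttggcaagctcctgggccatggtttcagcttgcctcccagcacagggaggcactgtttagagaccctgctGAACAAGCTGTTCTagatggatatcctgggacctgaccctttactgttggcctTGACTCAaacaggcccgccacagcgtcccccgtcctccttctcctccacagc
Col11a2 downstream: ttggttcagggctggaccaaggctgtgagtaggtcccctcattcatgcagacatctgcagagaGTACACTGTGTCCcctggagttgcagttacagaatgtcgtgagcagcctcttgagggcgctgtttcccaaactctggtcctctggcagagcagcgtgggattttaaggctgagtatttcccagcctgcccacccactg
Col5a1 intron: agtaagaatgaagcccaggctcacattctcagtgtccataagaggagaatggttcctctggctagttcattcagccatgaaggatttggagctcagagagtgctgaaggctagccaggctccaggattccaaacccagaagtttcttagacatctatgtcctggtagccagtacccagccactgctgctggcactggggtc

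The GR palindrome was found within 100 bp of the centre in 3 of the 625 collagen sites (0.48%) and in 0.645% of all 133271 sites. The match in *Col4a6*, GAACAAGCTGTTC, began 4 bp before the centre of the site, and that downstream of *Col11a2*, GTACACTGTGTCC, began 37 bp before it. The third match, GCACAGCGTGTCC, lay in an intron of *Col23a1*, 86 bp from the centre. Each of the 3 sites was without a covering peak in GR-KO libraries, while 3 GR-con libraries covered the sites of *Col4a6* and *Col11a2* and 2 covered that of *Col23a1*. Over the whole genome, 24.4% of the 860 sites with the palindrome and 4.50% of all sites were without a covering peak in GR-KO libraries. The *Col11a2* site had narrower peaks in GR-KO 2 and 3, given below. None of the 420 collagen sites present in all 6 libraries held the palindrome, which was found in 0.473% of all sites present in 6 libraries. The half-site was found in 14.9% of collagen sites and 16.9% of all sites, AP-1 in 8.96% and 6.03%, ACTGTA in 5.60% and 7.38%, and the NFI palindrome in 0.16% and 0.0563%. A match describes the letters in this window and not binding.

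Every GR-KO library had fewer peaks at the collagen loci than every GR-con library. The windows held 884, 880 and 927 peaks in GR-con 1, 2 and 3 and 835, 842 and 842 in GR-KO 1, 2 and 3. As a share of each list the mean was 0.473% for GR-con (SD 0.00621, n = 3) and 0.460% for GR-KO (SD 0.00445, n = 3). The groups did not overlap but nearly touched, at 0.4660% in GR-con 3 and 0.4653% in GR-KO 1. An exact two-sided permutation test gave p = 0.1, the smallest value that 3 against 3 libraries allow. How often other sets of genes stand apart in this way was not tested. With flanks of 10 kb in place of 50 kb the groups overlapped (difference -0.011 percentage points, p = 0.2 by the same exact permutation test), and with gene bodies alone they stood apart (difference -0.0113, p = 0.1 by that permutation test). The lower marker sums of pericytes and smooth muscle in GR-KO 1 and 3, and of neurons in GR-KO 1 and 2, and the higher astrocyte sum in every GR-KO library, stand beside this difference, and their part in it was not tested. Each member gene was then counted alone, from *Col4a2*, with 63, 61 and 67 peaks in GR-con, to *Col3a1*, with 2 in each GR-con library.

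In 8 of the 44 genes every GR-KO library had fewer peaks than every GR-con library, against 5.96% of all 19385 gene windows with a peak. The reverse was seen in 1 gene, against 1.82% of windows. The 8 genes were *Col4a1*, *Col5a1*, *Col11a2*, *Col13a1*, *Col18a1*, *Col19a1*, *Col24a1* and *Col25a1*, and the 1 was *Col6a1*, a chain of the beaded filaments of collagen VI. The length of the lists bore on this count. With every list cut to the length of the shortest, chosen after seeing the data, 3 genes were lower (3.55% of all windows) and 2 higher (4.23% of all windows). The 3 lower genes were *Col13a1* and *Col25a1*, both transmembrane collagens, and *Col24a1*, a fibrillar chain. The 2 higher genes were *Col6a1* and *Col16a1*, a chain of the fibril-associated class.

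*Col25a1*, whose product was first known from amyloid plaques, showed the widest gap among the 8. Its window held 40, 39 and 39 peaks in GR-con and 29, 27 and 31 in GR-KO libraries. Within the gene body alone the counts were 25, 19 and 24 against 21, 19 and 20, and the groups overlapped. The gap therefore lay mostly in the flank, which reaches into *Etnppl*, the gene of an astrocyte phospho-lyase. *Col13a1* held 16, 14 and 19 peaks in GR-con and 10, 11 and 12 in GR-KO libraries. *Col24a1* held 21, 17 and 19 against 14, 13 and 16, and its body alone 15, 12 and 13 against 9, 7 and 10. In the bodies of all 44 genes, 5 were lower without overlap (*Col4a1*, *Col4a2*, *Col5a1*, *Col15a1* and *Col24a1*), against 3.75% of all 16114 gene bodies with a peak, and 0 were higher, against 1.25%. With lists of equal length, *Col4a2* and *Col24a1* were the 2 bodies that stood lower (2.42% of all bodies), and 0 stood higher (2.19% of all bodies).

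**Figure D1:**
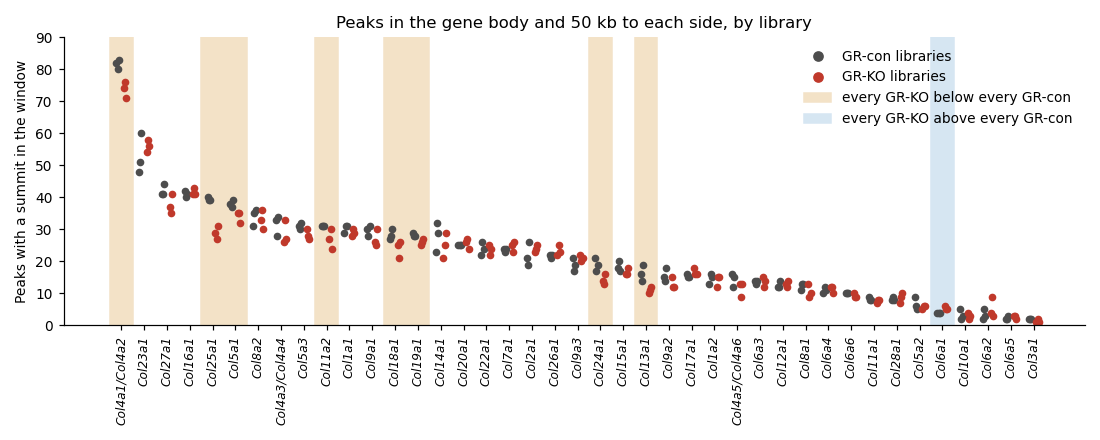
Peaks with a summit in the gene body or within 50 kb (vertical axis, number of peaks) at each of the 41 loci (horizontal axis), 1 point per library. Shading marks loci whose groups do not overlap, 8 with every GR-KO library lower and 1, *Col6a1*, with every GR-KO library higher.

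No promoter of a collagen gene was called by the test on covering peaks. A site centred within 1 kb of any annotated transcription start, which can lie inside the gene, was found for 32 of the 44 genes (72.7%), against 65.2% of all protein-coding genes. *Col11a1*, a fibrillar chain known from cartilage, stood highest, with folds of 19.8, 20.5 and 20.7 in GR-con and 20.6, 19.8 and 21.9 in GR-KO. *Col16a1*, of the fibril-associated class, followed with 19.5, 17.5 and 17.6 against 18.1, 17.4 and 16.2. *Col6a2*, a collagen VI chain, had 14.7, 21.8 and 17.8 against 16.4, 17.2 and 15.3. In each of these the ranges of the groups overlapped. No site was found at the starts of *Col3a1*, *Col5a3*, *Col6a1*, *Col6a4*, *Col6a5*, *Col6a6*, *Col7a1*, *Col8a1*, *Col10a1*, *Col12a1*, *Col20a1* and *Col28a1*. Among these, *Col3a1* encodes the fibrillar collagen of vessel walls and *Col10a1* the collagen of growth plate cartilage.

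The 32 genes used 30 distinct promoter sites, of which 21 had a peak in all 6 libraries. By limma on ranks, 0 of the 30 were called by fold and 0 by −log10 p, with 2 (6.67%) at an unadjusted p under 0.05 by each measure, against 12.1% of all sites by fold and 13% by −log10 p. The lowest adjusted p was 0.360 by fold and 0.293 by −log10 p, both at *Col11a2*. Its folds were 10.8, 9.82 and 5.46 in GR-con and 3.90, 5.36 and 3.75 in GR-KO, apart by a narrow margin. Ranked within each library, as in the test, the groups overlapped, at percentile 39.2 in GR-con 3 and 39.8 in GR-KO 2. The other of the 2 was *Col15a1*, a basement membrane collagen of the multiplexin class. Its site lies 141 bp from a transcript start well inside the gene and not at the outermost start. There no GR-con library had a peak of any kind with its summit in the site, and GR-KO 1, 2 and 3 had summit folds of 5.06, 3.79 and 4.86. When values were taken from the summit inside the site, this inner start passed by −log10 p (score higher by 1.26, SE 0.30, adjusted p = 0.0406 from limma) and missed by fold (adjusted p = 0.0592).

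**Figure D2:**
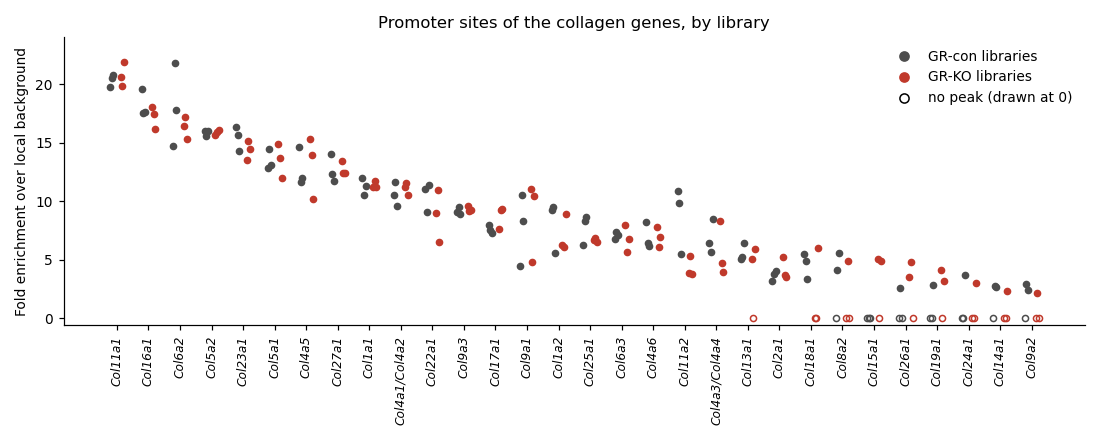
Fold enrichment of the peak at the 30 promoter sites (vertical axis, ratio over local background), 1 point per library, ordered by mean rank. Open points at 0 mark libraries without a covering peak, and the *Col15a1* site, at a start inside the gene, shows peaks in GR-KO libraries alone.

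The promoters of the collagen IV pairs had peaks in every library. *Col4a1* and *Col4a2*, the chains found in nearly all basement membranes, shared a site with folds of 10.6, 11.6 and 9.55 in GR-con and 11.2, 11.5 and 10.5 in GR-KO (score difference 0.09, SE 0.07, adjusted p = 0.648 from limma). *Col4a3* and *Col4a4*, chains of the kidney filter, shared a site with 6.43, 5.64 and 8.45 against 8.31, 4.73 and 3.93. *Col4a5* had 14.6, 11.6 and 11.97 against 15.3, 13.9 and 10.2, and *Col4a6*, with a site of its own, 8.26, 6.43 and 6.20 against 7.77, 6.05 and 6.97. The ranges of GR-con and GR-KO libraries overlapped at every one of the 4 sites.

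Away from the collagen promoters, single sites did differ. The fold of the strongest covering peak was ranked within each library, the ranks were turned into normal scores, and the scores were compared with limma over all 133271 sites. A score difference is GR-KO minus GR-con in units of the standard normal distribution. At an adjusted p under 0.05, 7 collagen sites were lower in GR-KO (1.12%, against 0.337% of all sites) and 1 was higher (0.16%, against 0.186%). Ranked by −log10 p, 7 were lower (1.12%, against 0.375%) and 0 were higher (against 0.213%). Without the variance trend of limma the counts were 14 lower and 5 higher by each measure. A block for replicate number left 2 lower by fold and 3 by −log10 p. The shares of all sites called in those fits are not given here. With flanks of 10 kb or gene bodies alone 3 were lower by each. The lower count by −log10 p was 3 without GR-con 2 and 4 without GR-con 1 or without GR-KO 1. At an unadjusted p under 0.05, 55 collagen sites were lower by fold (8.80%, against 5.42% of all sites) and 36 higher (5.76%, against 6.7%). By −log10 p these counts were 52 lower (8.32%, against 5.61%) and 39 higher (6.24%, against 7.41%). The median score difference by fold was -0.02 over the collagen sites and 0.03 over all sites.

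The calls fell in 4 of the 9 structural classes. Over all sites 0.337% were called lower by fold and 0.375% by −log10 p, so a small class without a call says little. The 173 fibrillar sites held 4 lower and 1 higher calls by fold and 2 lower and 0 higher by −log10 p, with a median difference of 0.01. The 88 sites of the transmembrane collagens held 1 lower call by fold and 3 by −log10 p, and the nearest start to each was that of *Etnppl*. The 80 collagen IV sites held 1 lower call by each measure. The 19 sites of *Col7a1*, the anchoring fibril chain of skin, held 1 by each, inside the neighbour *Pfkfb4*. At that site and at the lower sites in *Col5a3* and *Col5a1* the GR-con values came from summits outside the site, described below. With covering peaks no site was called by either measure among the fibril-associated (146 sites), short-chain (34), collagen VI (32) and multiplexin (30) classes, or at *Col26a1* and *Col28a1* (23). By summits, described below, sites of *Col12a1* and *Col22a1* (fibril-associated), *Col15a1* (multiplexin) and *Col28a1* were called. The share of sites with a difference below 0 ran from 44.1% in the short-chain class to 62.5% in the transmembrane class and 65.2% at *Col26a1* and *Col28a1*, against 44.3% of all sites.

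**Figure D3:**
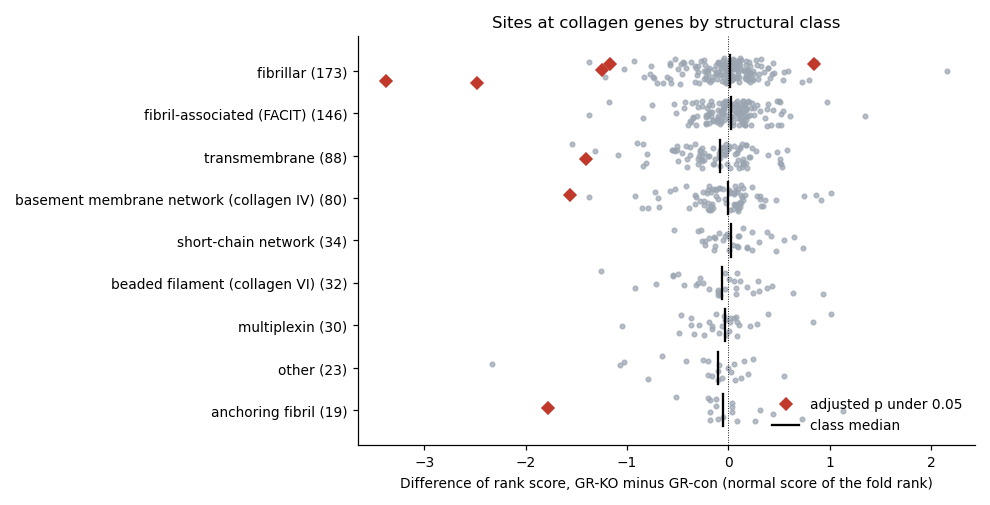
Score difference by fold rank, GR-KO minus GR-con (horizontal axis), of the 625 collagen sites by structural class (sites per class in brackets), with class medians as lines. Diamonds mark the 8 called sites, 7 below 0 and 1 above.

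A peak region can hold several summits, and the covering rule gives all of it the value of its strongest summit. For each called site the summit behind the value was therefore located. Of the 10 sites called by fold or −log10 p, 7 had it inside the site in every library with a value. The remaining 3 were in *Col5a3*, *Col5a1* and near *Col7a1*, and they had the smallest p-values.

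The *Col5a3* site lies in an intron (chr9:20793636-20794036). *Col5a3* encodes a chain of the minor fibrillar collagen V. The covering peak had folds of 18.2, 17.8 and 17.1 in GR-con and did not reach far enough into the site in GR-KO (score lower by fold, difference -2.48, SE 0.09, adjusted p = 0.00034 from limma). Its strong summit lay 622 to 636 bp from the centre. At that summit the fold was 20.7, 20.2 and 20.2 in GR-KO libraries, above the GR-con values. The weak summits inside the site had folds of 1.83, 1.84 and 2.04 in GR-con, and with these the call was lost (adjusted p = 0.524). The call thus marked how far a broad peak extended and not the height of that peak.

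The *Col5a1* intron site (chr2:27953560-27953960) behaved likewise, with a summit 425 to 432 bp away whose fold was 26.6, 26.6 and 22.0 in GR-con and 23.2, 24.9 and 25.5 in GR-KO. Near *Col7a1* the site (chr9:109021908-109022308) lies inside the neighbour *Pfkfb4*, a regulator of glycolysis. There the GR-con values of 15.0, 17.5 and 15.5 came from a summit 874 to 890 bp away, and the summits inside the site had folds of 3.32, 3.35 and 3.92 in GR-con against 2.77, 2.60 and 2.67 in GR-KO (adjusted p = 0.586 by the inner summit).

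**Figure D4:**
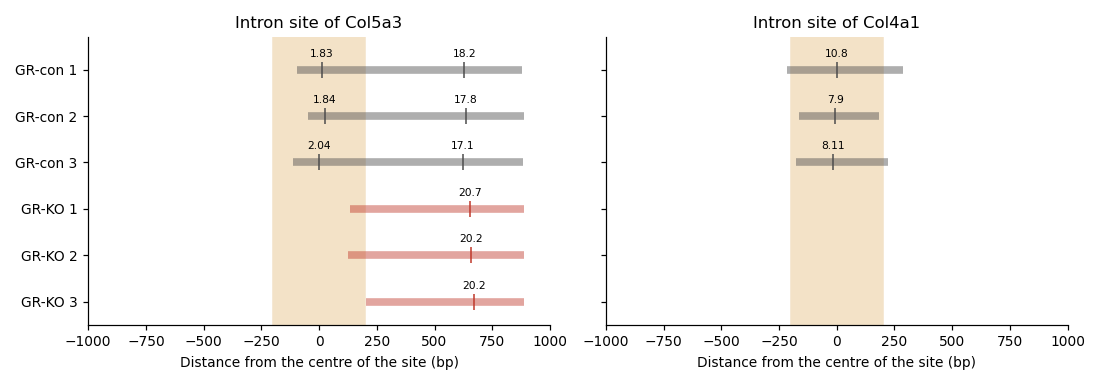
Extent of the peaks (bars) and their summits (ticks, labelled with the fold) in each of the 6 libraries around 2 called sites, by distance from the centre of the site in bp (horizontal axis, site shaded). At *Col5a3* the strong summit is present in all 6 libraries, and at *Col4a1* only the GR-con libraries have a peak.

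With values taken only from summits inside a site, 160877 sites were kept, 759 of them at collagen genes. By fold, 4 were lower (0.527%, against 0.127% of all sites) and 2 higher (0.264%, against 0.0609%). By −log10 p, 9 were lower (1.19%, against 0.835%) and 6 higher (0.791%, against 0.76%), so the last share stood close to that of all sites. The sites called in this way, other than the *Col15a1* promoter above, are described next beside those called by covering peaks, and those called by summits alone were chosen after their values were seen.

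The clearest lower site within a collagen gene was the intron site of *Col4a1* whose sequence opens the set above. It lies at chr8:11270821-11271221, 8635 bp from the nearest annotated transcript start, which is inside the gene and not its outermost start. The fold was 10.8, 7.90 and 8.11 in GR-con (mean 8.93 ± 1.60, SD, n = 3), and no GR-KO library had a peak of any width overlapping it. The score fell by 1.56 by fold (SE 0.14, adjusted p = 0.0138 from limma) and fell by 1.34 by −log10 p (adjusted p = 0.0269). By summits the adjusted p was 0.0196 and 0.00199, and the call by fold held without each library in turn. With a block for replicate number the call by fold was lost (adjusted p = 0.211 from limma). Its only motif match was 1 GR half-site, TGTTCT on the forward strand. In *Col4a2*, its head-to-head partner, an intron site (chr8:11324764-11325164) had folds of 14.5, 15.2 and 12.4 in GR-con and 9.38, 7.0 and 8.01 in GR-KO. The groups did not overlap, and the site passed by summit −log10 p alone (score lower, difference -0.41, SE 0.08, adjusted p = 0.0152 from limma; 0.0655 by fold). Another site of the pair (chr8:11234854-11235254) had covering peaks in GR-KO libraries alone, with folds of 4.51, 2.84 and 3.93, but GR-con 1 had a narrower peak there with a fold of 3.97, and it was not called (adjusted p = 0.130).

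Downstream of *Col13a1*, which encodes a collagen of cell junctions, a site at chr10:61827121-61827521 had folds of 12.1, 12.2 and 6.59 in GR-con. In GR-KO it had a peak in library 2 alone, with a fold of 2.27. By the covering rule it missed the threshold (adjusted p = 0.0600), and by summits it passed (difference -1.84, SE 0.23, adjusted p = 0.0356 from limma). Upstream of *Col5a3* a site 27805 bp from the gene (chr9:20842672-20843072) had 18.3, 15.2 and 16.7 against 7.76, 9.28 and 10.5. It passed by summit −log10 p (adjusted p = 0.0114) and not by summit fold (adjusted p = 0.0540). Downstream of *Col28a1* a site at chr6:7968157-7968557 had 12.3, 8.84 and 7.27 in GR-con and, in GR-KO 2 and 3, 3.22 and 4.49 (adjusted p = 0.0384 by summit −log10 p and 0.164 by summit fold). Past *Col1a1*, inside *Ppp1r9b*, a site at chr11:94998241-94998641 passed by summit −log10 p alone (adjusted p = 0.00447), while its folds of 13.7, 11.3 and 10.7 overlapped those of GR-KO, 10.3, 10.7 and 8.88.

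The other lower calls lay in flanks, with other genes as nearest neighbours. Past *Col25a1*, the site at chr3:130617311-130617711 lies 58 bp from the start of *Etnppl* and had folds of 7.84, 8.34 and 6.55 in GR-con and no peak in GR-KO (difference -1.40, SE 0.14, adjusted p = 0.0171 from limma). The call was lost without GR-con 1 (adjusted p = 0.0609) and without GR-con 2 (adjusted p = 0.0560). A site beyond *Etnppl* (chr3:130649512-130649912) had 19.1, 23.4 and 15.4 against 5.42, 6.44 and 8.23, and passed by −log10 p (adjusted p = 0.0434) but not by fold (adjusted p = 0.0736). By summits it passed by both (adjusted p = 0.0463 by fold and 1.08e-05 by −log10 p). Between them, an *Etnppl* intron site was called by −log10 p, with 445, 521 and 306 in GR-con and 83.4, 99.96 and 77.0 in GR-KO (adjusted p = 0.0464). Its fold was 15.5, 16.2 and 15.4 against 14.3, 15.7 and 14.9 and did not pass (adjusted p = 0.724). With covering peaks the −log10 p calls of these last 2 sites were lost without any 1 library other than GR-con 3 (adjusted p 0.0762 to 0.138 beyond *Etnppl* and 0.0756 to 0.145 in its intron). Past *Col11a2*, a cartilage chain, the palindrome site stands 1237 bp from the start of *H2-Oa*. It had folds of 5.67, 6.96 and 6.59 in GR-con and was called by the fold of covering peaks (adjusted p = 0.0303). GR-KO 2 and 3 had narrower peaks in it with folds of 3.60 and 4.49, and by summits it was not called (adjusted p = 0.356). Past *Col24a1*, a site inside *Znhit6* (chr3:145591878-145592278) had 4.91, 6.77 and 6.26 in GR-con, was called by covering peaks (adjusted p = 0.0448), and lost the call by summits (adjusted p = 0.360), where GR-KO 1 and 2 had narrower peaks. Both of these calls were also lost when any 1 library was left out (adjusted p from 0.0605 at *Col11a2* and from 0.0663 at *Col24a1*).

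The only higher call by the fold of covering peaks lay in an intron of *Col5a1* (chr2:27960711-27961111), 56530 bp from the nearest start. *Col5a1* encodes the main chain of collagen V, which controls the width of collagen I fibrils. The fold was 5.10, 6.02 and 4.73 in GR-con and 10.5, 11.5 and 13.1 in GR-KO (5.29 ± 0.663 against 11.7 ± 1.33, SD, n = 3). Every GR-KO library exceeded every GR-con library (score higher by 0.85, SE 0.11, adjusted p = 0.0427 from limma; 0.0383 by summits). By −log10 p it missed with covering peaks (adjusted p = 0.0543) and passed with summits (adjusted p = 0.00314). Leaving out any 1 library ended the call by fold (adjusted p 0.0712 to 0.118). The sequence printed for it held none of the motifs searched.

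Downstream of *Col12a1*, a fibril-associated chain of tendon and fascia, a site at chr9:79586445-79586845 had folds of 3.40, 4.33 and 3.89 in GR-con and 8.49, 9.09 and 11.9 in GR-KO. It stood just outside the threshold by covering peaks (difference 0.97, SE 0.14, adjusted p = 0.0523 from limma) and inside it by summits (adjusted p = 0.0462). Over an exon of *Col2a1*, the main collagen of cartilage, 2164 bp from its start (chr15:98002293-98002693), the summits had folds of 5.12, 5.63 and 4.39 in GR-con and 7.49, 8.81 and 8.17 in GR-KO. The groups stood apart, and the site passed by summit −log10 p alone (score higher by 0.55, SE 0.09, adjusted p = 0.00226 from limma; 0.104 by summit fold). An intron site of *Col22a1* (chr15:71845247-71845647) also passed by summit −log10 p alone (adjusted p = 0.0310), with folds of 23.4, 21.5 and 15.1 in GR-con that overlapped 23.1, 25.7 and 23.6 in GR-KO. In an intron of *Col6a6* (chr9:105742290-105742690) the folds were 4.54, 3.57 and 4.23 against 7.22, 7.38 and 7.30, apart in every library but not called (adjusted p = 0.0986). A site past *Col7a1*, inside *Pfkfb4*, had covering peaks in GR-KO libraries alone, with folds of 4.87, 4.10 and 5.16. GR-con libraries had narrower peaks there with folds of 3.38, 3.37 and 2.87, and it was not called (adjusted p = 0.0506). The 5 smallest p-values among higher sites by fold also took in the strong *Col5a3* summit described above (adjusted p = 0.114), and those by −log10 p a site in *Ppp1r9b* past *Col1a1*, with folds of 2.65, 2.61 and 2.58 against 3.65, 3.52 and 3.57. The latter missed with covering peaks (adjusted p = 0.0996) and passed by summit −log10 p (adjusted p = 0.0439).

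**Figure D5:**
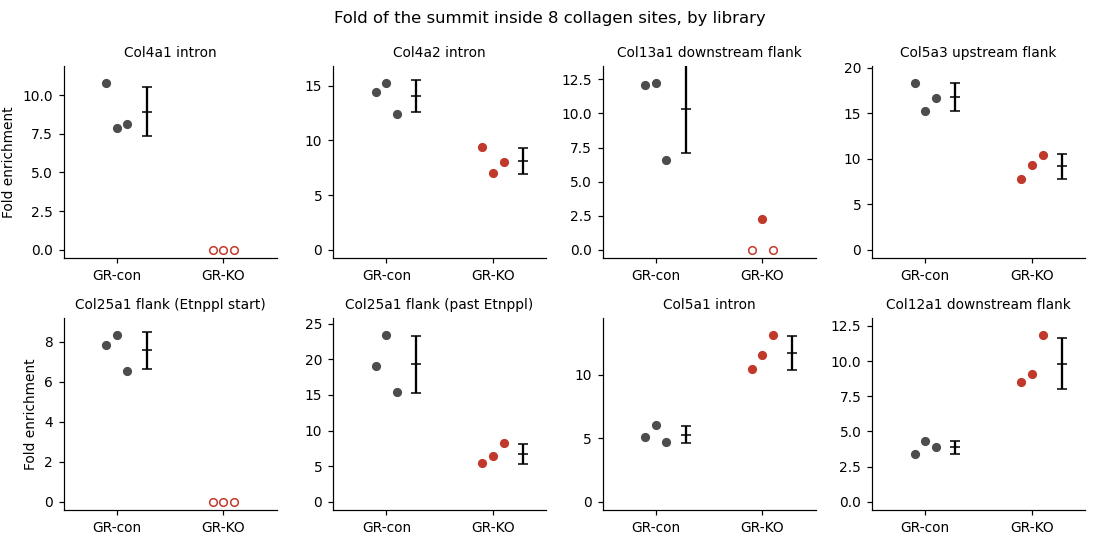
Fold of the strongest summit inside each of 8 collagen sites (vertical axes), 1 point per library, with mean and SD beside groups in which all 3 libraries had a summit. Open points at 0 mark libraries without a summit in the site. In the first 6 panels every GR-KO library lies below every GR-con library, and in the last 2, *Col5a1* and *Col12a1*, above.

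All 3 GR-con libraries but none of GR-KO had a covering peak at 18 collagen sites (2.88%, against 1.31% of all sites), and the reverse at 2 (0.32%, against 0.514%). Leaving out 1 library makes the rule ask for fewer libraries of that group. GR-con alone then held 22 to 26 sites and GR-KO alone 2 to 11. The latter count was 11 without GR-KO 2, 6 without GR-con 1 or GR-con 3 and 5 without GR-KO 1. The share of all sites under that rule is not given here. An overlap of 1 bp gave 11 sites with GR-con alone and 6 with GR-KO alone. Peaks of 200 bp or less, which cannot cover a site by this rule, made up 14.8% to 14.9% of the GR-con lists and 15.3% to 16.2% of the GR-KO lists, and the part of this in the counts was not tested. The 18 sites lay at 13 loci, 10 of them in introns of collagen genes. In 6 of the 18 no GR-KO peak of any width overlapped the site, so in most of them a GR-KO peak reached the site but did not cover enough of it. At *Col5a3* and *Col5a1* such peaks were strong ones centred beside the site. A peak called narrower in this report covered 200 bp of the site or less. Both GR-KO sites likewise had a peak that covered 200 bp or less in at least 1 GR-con library. Counting summits inside the site in place of coverage gave 12 sites with GR-con alone (1.58%, against 1.15% of all sites) and 6 with GR-KO alone (0.791%, against 0.618%).

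Among the 6 GR-con sites without any GR-KO peak was the palindrome site of *Col4a6*. It had folds of 4.54, 4.704 and 3.89 in GR-con, and it was not called (difference -0.86, SE 0.15, adjusted p = 0.0970 from limma; 0.0715 by summits). The intron site of *Col4a6* that ranked among the highest of the 18 (chrX:141175381-141175781) had 10.0, 5.08 and 7.78 in GR-con, with narrower GR-KO peaks of 4.33, 4.54 and 3.74 (adjusted p = 0.0573). An intron site of *Col5a1* (chr2:27899913-27900313) had 5.67, 6.02 and 4.06 in GR-con and a narrower peak in GR-KO 1 with a fold of 3.97 (adjusted p = 0.0808). An intron site of *Col25a1* (chr3:130494703-130495103) had 7.94, 3.57 and 5.92, and narrower GR-KO peaks of 2.35, 3.60 and 4.12 (adjusted p = 0.146). Next to *Col16a1* (chr4:130099596-130099996) the folds of 2.68, 12.6 and 10.6 came in GR-con 2 and 3 from a summit 447 bp away, and GR-KO libraries had no overlapping peak (adjusted p = 0.283).

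The genes that make, cut, cross-link and bind collagen were read in the same way. All 39 on the list, among them prolyl and lysyl hydroxylases, lysyl oxidases, the chaperone *Serpinh1* and collagen receptors, were in the annotation, with 601 sites. By fold 1 site was lower (0.166%, against 0.337% of all sites) and 1 higher (0.166%, against 0.186%). By −log10 p 3 were lower (0.499%, against 0.375%) and 1 higher (0.166%, against 0.213%), so these shares stood near those of all sites. At the promoter of *Sparc*, a collagen-binding protein that astrocytes secrete, 2 neighbouring sites shared a peak. Its −log10 p was 226, 238 and 206 in GR-con and 111, 96.5 and 84.5 in GR-KO (score lower, difference -0.49, SE 0.06, adjusted p = 0.0252 from limma). Its fold did not follow, with 12.3, 13.3 and 11.4 against 12.01, 12.03 and 10.5 (adjusted p = 0.820). Near *P3h3*, a prolyl hydroxylase gene, a site 5907 bp from the start of *Cd4* had folds of 12.8, 13.7 and 9.13 in GR-con and, in GR-KO, a covering peak in library 1 alone with a fold of 2.53 (adjusted p = 0.0318). GR-KO 3 had a narrower peak there with a fold of 2.62, and by summits the site was still called (adjusted p = 0.0328). The higher call near *Loxl1*, a lysyl oxidase gene, stood 422 bp from the start of *Stoml1* with 22.7 to 23.9 in GR-KO and no covering peak in GR-con. The summits inside that site had folds of 3.80, 4.20 and 4.01 in GR-con and 3.58, 4.62 and 4.92 in GR-KO, and with them the call was lost (adjusted p = 0.784).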

How the data were processed

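Peak lists of 6 ATAC-seq libraries were used. The authors made them with the ENCODE ATAC-seq pipeline, calling peaks in each library alone down to a −log10 p-value of 2, in mm10 per the labels. Each list holds, as deposited, a capped score, a fold enrichment (ratio over local background) and the −log10 of p and q. The lists carry no read counts, so depth is unknown and the study's count-based test was not run. No peak ended beyond its chromosome (0 of 1116429).

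The gene window was the body with 50 kb to each side, and a site belonged to it by its centre. Head-to-head starts lie within 5 kb. Normal scores of within-library ranks, with absent peaks tied lowest, were compared with limma 3.58.1 in R 4.3.3 (variance trend, no block, two-sided, Benjamini-Hochberg over all sites), which was tested on simulated data. Other steps used Python 3.11.15, scipy 1.17.1 and pysam 0.24.0.

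Named sites are those called, the 5 smallest p in each direction by each measure, up to 10 sites present in 1 group alone by highest mean fold, and promoter sites within 1 kb. Sites called by summit alone and the palindrome sites were added after their values were seen. The genes, lists and rules were chosen with earlier results of these data known. The labels do not say whether replicates share a litter or day, and p-values measure the spread between these pooled libraries. Alternatives were a q limit of 0.01, equal lists, 1 bp overlap, summits, 3 libraries, no trend, a replicate block, narrower windows and leaving out each library.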

Additional observations from a re-analysis of the deposited data

How the results depend on the processing

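The number of collagen sites, the counts of calls and the share of peaks were recomputed under each alternative. A q-value limit of 0.01 gave 2 higher sites by fold. An overlap of 1 bp gave 2 higher sites by −log10 p, 11 sites with peaks in GR-con alone and 6 in GR-KO alone. Peaks chosen by summit gave 4 lower and 2 higher sites by fold, 6 higher by −log10 p and 6 with GR-KO peaks alone. Sites in at least 3 libraries gave 3 higher by each measure. Without the variance trend 14 were lower and 5 higher by each measure. Windows of 10 kb held 377 sites, with 3 lower by each measure, 11 with GR-con peaks alone and 1 with GR-KO peaks alone, and gene bodies held 310, with 3 lower, 10 and 1. Leaving out sites shared with another gene, an alternative added after seeing the data, gave 4 lower by each measure and 1 with GR-KO peaks alone. Leaving out 1 library at a time gave 5 to 7 lower and 0 to 1 higher sites by fold, 3 to 6 lower and 0 to 1 higher by −log10 p, 22 to 26 sites with GR-con peaks alone, 2 to 11 with GR-KO peaks alone and 603 to 615 sites in all, and the share of peaks differed by -0.0166 to -0.0112 percentage points, the same direction each time. The lowest of the −log10 p counts came without GR-con 2, and the 11 GR-KO sites came without GR-KO 2. The presence rule asks for fewer libraries once 1 is left out. The cause of these shifts was not tested, apart from the fewer sites tested in narrower windows.

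The deviations of same-numbered libraries correlated by 0.0508, -0.0197 and 0.0303, so no pairing by replicate number was seen. These values cannot show whether such libraries shared a litter or day. With the replicate block 2 sites were lower and 0 higher by fold, and 3 were lower and 0 higher by −log10 p. Under the block the *Col4a1* intron site was not called (adjusted p = 0.211), the only alternative of those run under which it lost its call by fold. The strong *Col5a3* summit, which ranked higher by fold, had a difference of -0.0507 by −log10 p. Of 277 values at named sites under alternatives, 210 kept direction and call, 53 lost a call, 13 gained 1 and 1 reversed, and 3 more could not be computed. Read depth is unknown, and a peak missing from a list may be open chromatin under the limit of detection.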
